A study of Mus musculus with 15 samples.

Results

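The comparison set the ventral part of the E10.5 mouse dorsal aorta (E10 AoV) against its dorsal part (E10 AoD), 3 RNA-seq libraries against 3, which were taken by their labels from the 15 libraries of the series. All embryos were of the C57BL/6 strain background, and the labels give no mutant allele, no agent and no cell sort for any group. The aorta-gonad-mesonephros (AGM) region, the part of the embryo around the aorta where the first hematopoietic stem cells (HSCs) form, was cut at E10.5 into AoV, AoD and the urogenital ridges (E10 UGR) and at E9.5 into AoV and AoD. Tissue of each part was pooled from 15 to 34 embryos, in 3 separate experiments. Replicate numbers are not tied to an experiment in the labels, so p-values measure the spread between these pools, part of which may be technical. Most HSCs arise on the ventral side of the aorta, and the comparison asks which genes distinguish the surroundings of that wall from those of the opposite one.

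Expression was given as RPM, the reads of a gene per M reads of its library. The 6 libraries held about 38.6 to 42.9 M reads, estimated from the value that 1 read takes in each, and 3 reads corresponded to 0.0699 to 0.0777 RPM. Values of libraries of the same group correlated across genes with r between 0.994 and 0.997. RPM values are not scaled to transcript length, so fold changes compare libraries within a gene. Where genes are ranked or compared by RPM below, long transcripts are favoured. The parts are blocks of tissue with all their cells, and fewer cells of a type and less RNA per cell cannot be told apart in any value given here.

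The dorsal aorta of the midgestation embryo lies below the notochord and neural tube and between the somites, and above the dorsal mesentery, the gut and the coelomic cavity. The notochord secretes Sonic hedgehog (Shh), which patterns the floor of the neural tube and turns the ventral somite into sclerotome, the precursor of the vertebrae. The ventral side is rich in BMP ligands and is bordered by coelomic epithelium, from which the gonads and the adrenal cortex arise, and primordial germ cells migrate through the mesentery past the aorta to reach the gonads.

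Of 17752 genes with 0.5 RPM or more in at least 1 of the 6 libraries, 1796 (10.1%) were called, with a limma adjusted p below 0.05 and a difference of at least 2-fold. Expression of 1029 of them (5.8% of the genes tested) was higher in E10 AoV, and expression of 767 (4.32%) was lower. All fold changes are E10 AoV over E10 AoD on the log2(RPM + 0.1) scale, which understates the change of genes with few reads. The median over all genes tested was 0.02 on this scale, and the median standard error of a gene was 0.08. In each called gene the ranges of both groups were separate, which was also true of 50.3% of all genes tested. At an adjusted p below 0.05 with no limit on the fold, 3919 genes were higher and 2889 lower, together 38.4% of those tested. Called genes had lower levels than the other genes: the median of the mean RPM in the higher group was 3.77 for the ventral genes and 4.36 for the dorsal ones, against 19.9 for all genes tested. Differences of 4-fold or more (log2 of 2) were found for 338 ventral and 289 dorsal genes, and log2 differences of 4 or more for 31 and 14. In 347 of the ventral genes every dorsal library was below 0.5 RPM, and in 260 of the dorsal genes every ventral library was.

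**Figure D1:**
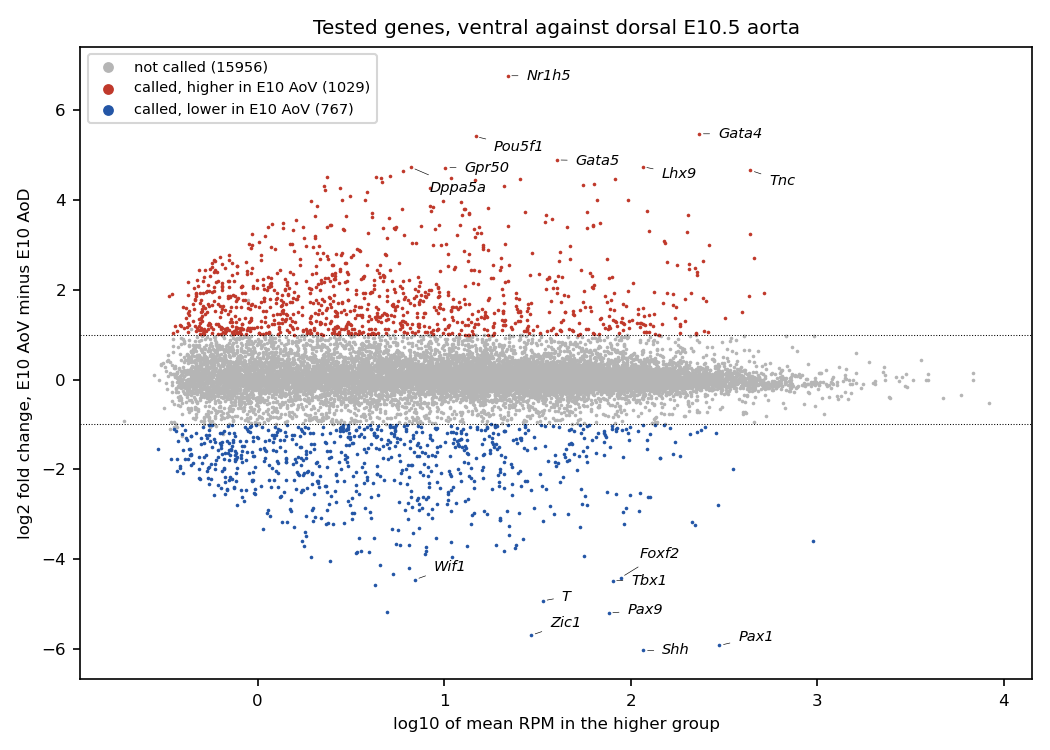
Each point is 1 of the 17752 tested genes. The horizontal axis gives log10 of the mean RPM in the group where the gene was higher, the vertical axis the log2 fold change of E10 AoV over E10 AoD, and the dotted lines mark 2-fold. The 1029 genes called higher (red) and the 767 called lower (blue) were spread over the whole range of levels below about 3 on the horizontal axis, and Nr1h5 and Shh stood at the 2 extremes with log2 fold changes of 6.77 and -6.03.

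The 15 genes with the largest ventral difference, among those with a mean of at least 5 RPM in the higher group, included the transcription factor genes Nr1h5, Gata4, Gata5, Lhx9, Pou5f1 and Utf1, the mesothelial markers Upk3b and Lrrn4, and the matrix gene Tnc. Nr1h5 encodes a nuclear receptor of the farnesoid X receptor type. The gene (ENSMUSG00000048938; NCBIM37 chromosome 3, 102743581 to 102768056, minus strand) was measured at 23.7, 23.8 and 18.1 RPM in the ventral libraries and at 0.0256, 0.0753 and 0.26 RPM in the dorsal ones. All ventral libraries were far above all dorsal ones, of which the first was at the level of a single read (log2 fold change 6.77, SE 0.339, adjusted p = 1.46e-06). Gata4, which encodes a zinc finger factor of heart, gut and gonad development (chromosome 14, 63817759 to 63890529), had 216, 236 and 248 RPM in the ventral libraries and 4.07, 5.24 and 6.32 RPM in the dorsal ones. Its groups were as widely separated (log2 fold change 5.48, SE 0.137, adjusted p = 5.67e-08). Lhx9, a LIM homeobox gene needed for the gonad (chromosome 1, 140721763 to 140745153), had 111, 121 and 116 RPM against 3.3, 4.67 and 4.9 RPM, again with no overlap (4.75, SE 0.132, adjusted p = 7.37e-08). Gata5, which overlaps the antisense gene Gm14318, had 37.3, 42.2 and 41 RPM against 0.817, 1.34 and 1.77 RPM (4.89, SE 0.221). Upk3b, a marker of mesothelium, had 72.9, 81.6 and 93.1 RPM against 2.41, 4.14 and 4.59 RPM (4.48, SE 0.211). For both genes the lowest ventral library was many times higher than the highest dorsal one.

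Tnc encodes tenascin-C, an extracellular matrix glycoprotein found around developing vessels and mesenchyme, and was the most abundant gene among those with the largest ventral excess (chromosome 4, 63620819 to 63681760, with the antisense gene 8030451A03Rik in the same interval). It was measured at 425, 476 and 414 RPM in the ventral libraries and at 15.8, 20 and 16 RPM in the dorsal ones (4.66, SE 0.0937, adjusted p = 2.35e-08). The spread within each group was small beside the gap between them. In the urogenital ridges Tnc was at 20 ± 0.4 RPM (SD, n = 3), the level of the dorsal part. Aldh1a1, which encodes a retinaldehyde dehydrogenase, had 11.8, 12.4 and 8.52 RPM ventrally and 0.305, 0.48 and 0.38 RPM dorsally (4.49, SE 0.185). Pou5f1, Dppa5a and Utf1, genes of pluripotent cells and germ cells, differed by 5.42, 4.73 and 4.53, and 54.6% of the 50-base stretches of Dppa5a occur in other transcripts, so its reads are shared. The remaining genes of this group were Gpr50, an orphan receptor related to melatonin receptors (4.72), Dpp10 (4.64), Popdc2, a cAMP-binding protein of the heart (4.47, same-strand overlap with Cox17), the neurotensin receptor gene Ntsr1 (4.46) and Lrrn4, a marker of mesothelium (4.36).

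**Figure D2:**
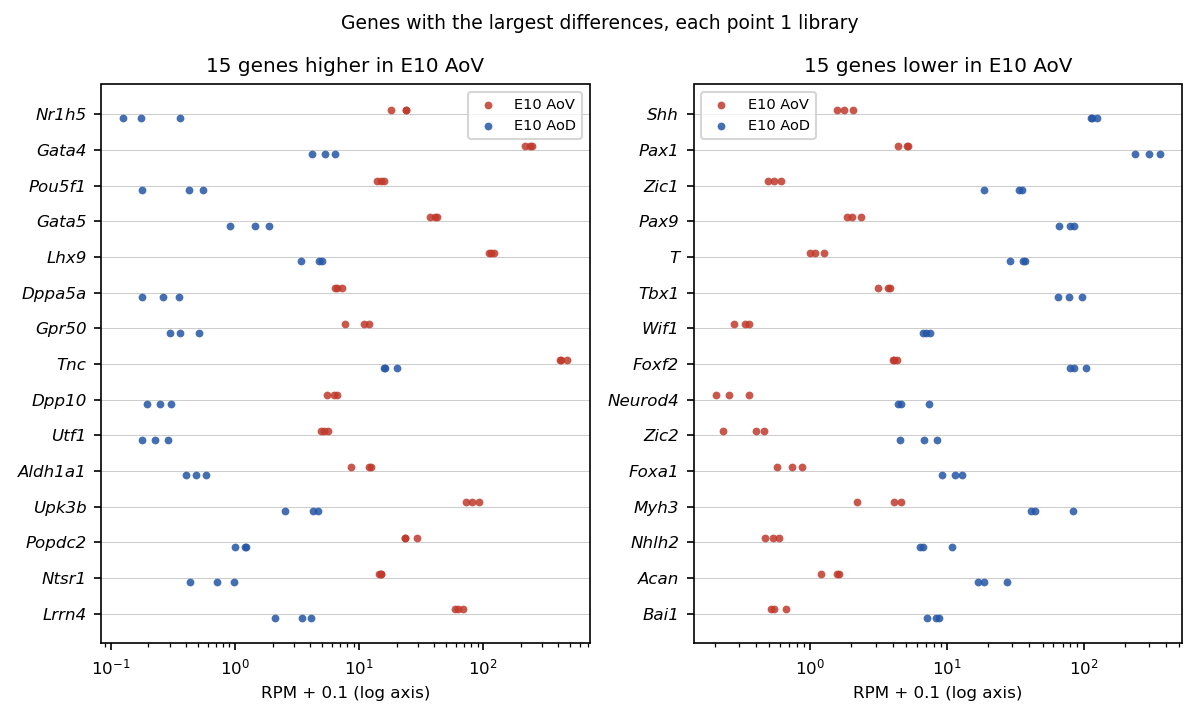
The 15 genes with the largest difference in each direction among called genes with a mean of at least 5 RPM in the higher group. The horizontal axis gives RPM + 0.1 on a log axis, and each point is 1 of 3 libraries of E10 AoV (red) or E10 AoD (blue). In every row the points of both colours are separate, from Tnc at 414 to 476 RPM against 15.8 to 20 RPM on the left to Shh at 1.47 to 1.95 RPM against 113 to 124 RPM on the right.

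The upstream sequences of some of these genes are shown because GATA factor genes were among the largest ventral differences and most myotome genes were dorsal. RefSeq promoter entries (GRCm38.p6, a later build than the NCBIM37 gene positions above) were found for 9947 of the genes tested, 596 of the 1029 ventral and 476 of the 767 dorsal genes, and the 250 bases before the start were searched on both strands. The GATA motif, AGATAA or TGATAA, occurred in 12% of the promoters of ventral genes and 9.77% of those of dorsal genes, against 9.54% for all tested genes and 16.6% for all 32851 promoters. The E-box CAGCTG, a palindrome bound by MyoD-type factors, occurred in 15.8% and 18.2%, against 12.5% for all tested genes and 13% for all promoters. Nr1h5 holds 1 GATA motif 64 bases before its start (chr3:102964134-102964383, minus strand). Of the 13 called genes of the coelomic epithelium 6 had an entry and 2 held the motif, Lhx9 at 59 bases (chr1:138842445-138842694, minus strand; the match reads TTATCA on the strand shown) and Tcf21 at 31 bases (chr10:22820144-22820393, minus strand). Of the 12 called myotome genes 8 had an entry and 3 held CAGCTG, Des at 36 bases (chr1:75360042-75360291, plus strand), Chrna1 at 92 and 44 bases (chr2:73580339-73580588, minus strand) and Mybph at 79 bases (chr1:134193198-134193447, plus strand). A match is a string of letters in this window and shows no binding. Sequences are written from 5′ to 3′ in the direction of the gene. Capitals mark the GATA motif in Nr1h5, Lhx9 and Tcf21 and CAGCTG in Des, Chrna1 and Mybph, and matches to the other motif are left in lower case.
Nr1h5: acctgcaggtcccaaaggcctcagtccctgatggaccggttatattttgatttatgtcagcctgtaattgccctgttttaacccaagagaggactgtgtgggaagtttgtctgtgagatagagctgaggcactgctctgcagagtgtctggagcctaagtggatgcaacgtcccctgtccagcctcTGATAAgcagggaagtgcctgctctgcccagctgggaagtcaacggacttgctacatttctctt
Lhx9: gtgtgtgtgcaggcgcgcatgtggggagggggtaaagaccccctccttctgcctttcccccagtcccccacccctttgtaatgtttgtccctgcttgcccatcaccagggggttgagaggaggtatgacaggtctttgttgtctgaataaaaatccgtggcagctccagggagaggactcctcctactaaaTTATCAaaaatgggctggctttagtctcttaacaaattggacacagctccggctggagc
Tcf21: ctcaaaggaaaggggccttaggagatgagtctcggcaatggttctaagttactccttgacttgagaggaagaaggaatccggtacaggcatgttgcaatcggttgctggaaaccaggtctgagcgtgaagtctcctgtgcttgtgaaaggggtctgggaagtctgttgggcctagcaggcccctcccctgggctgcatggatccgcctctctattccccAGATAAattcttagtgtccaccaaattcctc
Des: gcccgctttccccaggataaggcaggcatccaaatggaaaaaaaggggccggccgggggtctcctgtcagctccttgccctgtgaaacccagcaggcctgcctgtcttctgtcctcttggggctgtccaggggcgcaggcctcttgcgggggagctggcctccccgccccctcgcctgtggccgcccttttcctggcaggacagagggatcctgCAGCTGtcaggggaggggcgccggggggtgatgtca
Chrna1: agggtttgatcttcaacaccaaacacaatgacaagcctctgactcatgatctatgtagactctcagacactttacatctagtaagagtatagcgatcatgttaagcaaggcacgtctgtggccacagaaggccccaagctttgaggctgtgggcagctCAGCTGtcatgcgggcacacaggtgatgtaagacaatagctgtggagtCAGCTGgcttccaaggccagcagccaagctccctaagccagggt
Mybph: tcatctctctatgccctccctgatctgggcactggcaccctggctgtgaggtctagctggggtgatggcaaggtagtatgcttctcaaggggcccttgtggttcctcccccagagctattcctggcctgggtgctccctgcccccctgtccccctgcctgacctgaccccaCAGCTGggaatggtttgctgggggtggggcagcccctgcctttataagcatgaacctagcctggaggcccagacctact

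The other motifs were rare in these windows. The octamer ATGCAAAT, to which the Pou5f1 protein binds, was found in 2.85% of the promoters of ventral genes, 1.3% of those of dorsal genes and 1.28% of those of all genes tested. The NR5A motif CAAGGTCA stood in 1.81%, 0.977% and 1.02%, the forkhead motif TGTTTAC in 1.81%, 2.28% and 2.13%, and the T-box motif AGGTGTGA in 0.906%, 0.326% and 0.665%. TGGGTGGTC, the motif of the GLI factors of the Hedgehog pathway, was in none of the promoters of ventral genes, 0.163% of those of dorsal genes and 0.18% of those of all genes tested. Over all promoters in the table these shares were 1.6%, 1.33%, 3.17%, 1.12% and 0.225%.

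The 15 genes with the largest dorsal difference by the same rule included genes of the notochord (Shh, T), the sclerotome (Pax1, Pax9) and the neural tube (Zic1, Zic2). Shh (ENSMUSG00000002633; chromosome 5, 28783355 to 28793641, minus strand, with the antisense genes 9530036O11Rik and Gm17493 in the interval) was measured at 1.67, 1.47 and 1.95 RPM in the ventral libraries and at 124, 113 and 114 RPM in the dorsal ones. No ventral library came near the dorsal range (log2 fold change -6.03, SE 0.0975, adjusted p = 2.21e-08). Pax1, a factor of the sclerotome, had 4.98, 4.25 and 5.05 RPM against 300, 360 and 236 RPM (-5.92, SE 0.139), and its partner Pax9 had 1.91, 1.75 and 2.25 RPM against 78.9, 84.1 and 65.7 RPM (-5.20, SE 0.115). T, the Brachyury gene of the notochord, had 1.17, 0.895 and 0.978 RPM against 37.4, 28.6 and 35.8 RPM (-4.93, SE 0.13). Low ventral levels were thus common to the genes of both tissues. Foxf2, a forkhead gene of mesenchyme next to sources of Hedgehog ligand, had 4.23, 3.93 and 3.98 RPM against 84.4, 103 and 78.6 RPM (-4.41, SE 0.0962). Tbx1, a T-box gene, had 3.76, 3.58 and 3.03 RPM against 77.3, 97.2 and 65.2 RPM (-4.48, SE 0.141). In both the dorsal library of replicate 2 was the highest, without touching the ventral range. The neural tube gene Zic1 had 0.389, 0.512 and 0.442 RPM against 35.4, 33.8 and 18.7 RPM, with the dorsal library of replicate 3 the lowest of its group (-5.70, SE 0.229). It overlaps Zic4 on the other strand, and Pax1 and Pax9 overlap AI646519 and Slc25a21 in the same way. The other genes of this group were Wif1, a secreted Wnt inhibitor (-4.46), Neurod4 (-4.32), Zic2 (-4.19) and Nhlh2 (-3.88) of the nervous system, Foxa1 (-3.96), the embryonic myosin gene Myh3 (-3.94), the cartilage proteoglycan gene Acan (-3.83) and the adhesion receptor gene Bai1 (-3.82, overlapping AC117657.1 on the same strand).

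The most abundant ventral genes were Sfrp1, a secreted Wnt inhibitor, with 516 ± 21.3 against 135 ± 15.7 RPM (mean ± SD, n = 3 libraries; log2 fold change 1.94), Podxl, a sialomucin of podocytes and vessels, with 460 ± 24.4 against 71 ± 7.05 RPM (2.70), Tnc, Gm98 with 435 ± 16.6 against 46.2 ± 5.7 RPM (3.24), and Shisa3 with 433 ± 13 against 118 ± 5.13 RPM (1.87). The most abundant dorsal genes were the cartilage collagen Col2a1 with 78.3 ± 5.22 against 944 ± 76.5 RPM (-3.59), the Hedgehog receptor Ptch1 with 88 ± 6.03 against 352 ± 12.7 RPM (-2.0), Pax1, the forkhead gene Foxd1 with 41.8 ± 2.91 against 292 ± 48 RPM (-2.79), and Fndc3c1 with 125 ± 5.29 against 285 ± 14.6 RPM (-1.19), of whose 50-base stretches 12.7% are shared with other transcripts. The differences of these genes were all many times their standard errors.

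**Figure D3:**
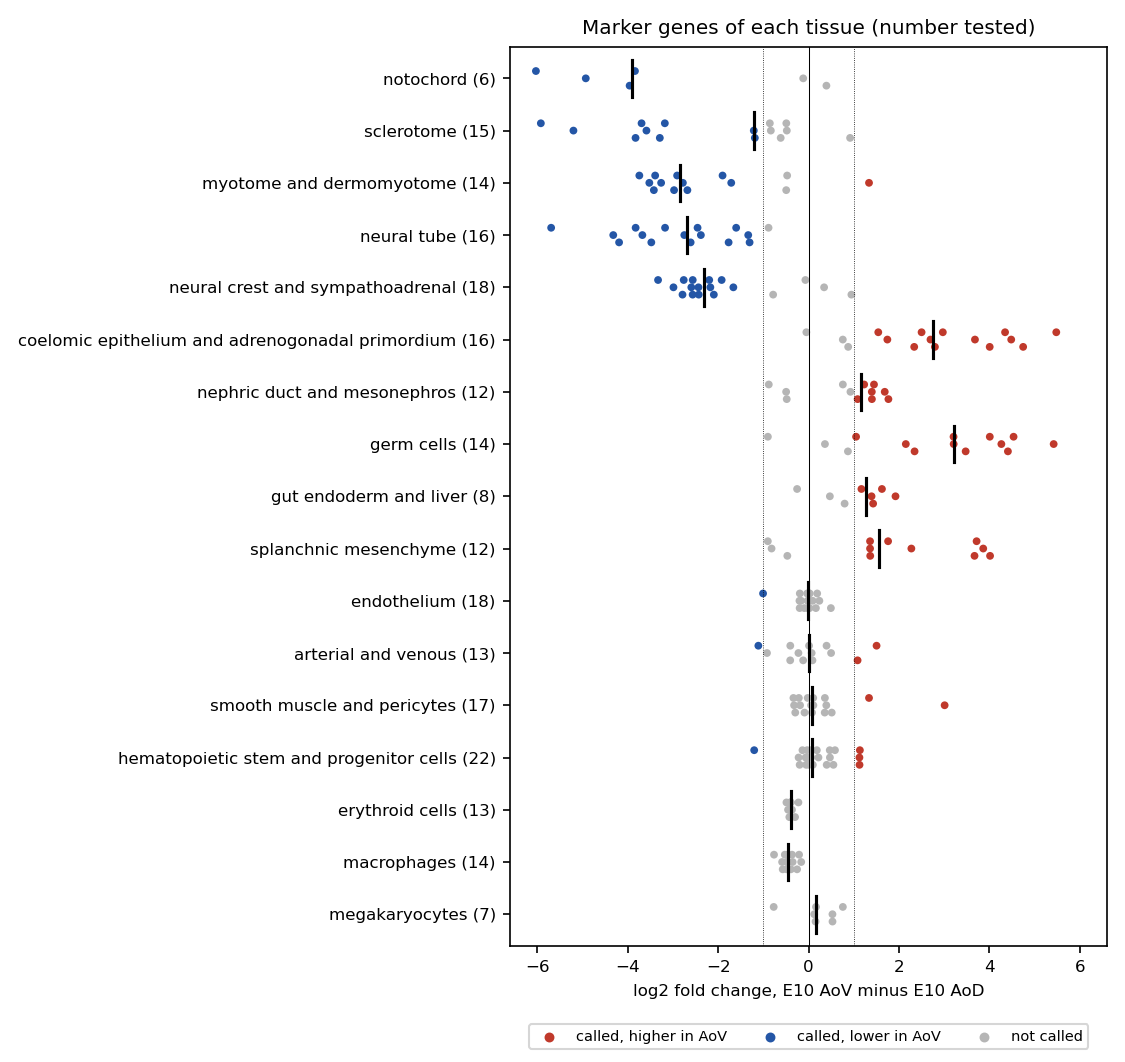
Each row is a list of marker genes of a tissue or cell type, with the number tested in brackets, and each point is the log2 fold change of 1 gene, E10 AoV over E10 AoD, red where called higher, blue where called lower and grey where not called. Black ticks are list medians and dotted lines mark 2-fold. Points of the notochord, sclerotome, myotome, neural tube and neural crest lie to the left, and those of the coelomic epithelium, germ cells and splanchnic mesenchyme to the right. Those of endothelium, hematopoietic progenitors and megakaryocytes lie around 0. Erythroid and macrophage points are all left of 0 and within 2-fold.

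The counts of each list are to be read against the shares of all genes tested, 5.8% called higher and 4.32% called lower. Markers of the tissues above the aorta were lower in E10 AoV in larger shares. Of 6 notochord genes tested, 4 were lower and none higher (median -3.90): Shh, T, Foxa1 and Foxa2. Noto, of the same list, was at or below 1 read in all 6 libraries. The summed level of the list was 9.16 to 10.6 RPM in the ventral libraries and 160 to 186 RPM in the dorsal ones. For such sums the exact permutation test of 3 libraries against 3 cannot go below p = 0.1, which is the value for every list whose ranges were separate. Of 15 sclerotome genes 9 were lower and none higher (median -1.21; sums 605 to 634 against 2160 to 2630 RPM). Meox2, a homeobox gene of the somite, had 1.79, 1.71 and 1.82 RPM against 23.9, 25 and 23.7 RPM (-3.70, SE 0.0724), with almost no spread in either group. Sox9, the chondrogenic factor, had 75.9 ± 11.8 against 136 ± 26.1 RPM, a difference of -0.84 that was under 2-fold.

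Of 14 myotome and dermomyotome genes 11 were lower in E10 AoV and 1, Des, was higher (median -2.85). The muscle regulator Myog had 2.21, 1.3 and 1.56 RPM against 18, 29.9 and 23.8 RPM (-3.75, SE 0.218), and Myf5 had 0.104, 0.205 and 0.303 RPM against 2.31, 5.34 and 2.82 RPM (-3.52, SE 0.342). Muscle genes were highest in the dorsal library of replicate 2, for Myh3 at 82.8 RPM beside 41.1 and 43.7 RPM, and 11 genes of the list were called lower without that library too. The subunit of the muscle acetylcholine receptor encoded by Chrna1 (-3.40) and Mybph (-3.42; 26.6% of its 50-base stretches shared) moved with them. Des encodes desmin, an intermediate filament protein of all muscle types, and had 103, 95.7 and 106 RPM against 37.2, 40.4 and 43.1 RPM (1.33, SE 0.0634). Its direction was thus the opposite of that of the other called genes of the list. Sums over the whole list, with Des and the genes not called, were 241 to 273 against 309 to 366 RPM.

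Of 21 neural tube genes 16 were tested, and 15 of these were lower in E10 AoV (median -2.68; sums 40.3 to 46.6 against 208 to 278 RPM). Sox2, of neural progenitors, had 9.31, 9.36 and 7.99 RPM against 32.4, 19 and 18.6 RPM (-1.34, SE 0.195), Olig2, of motor neuron progenitors, had 0.104, 0.0256 and 0.0466 RPM against 2.82, 0.878 and 1.73 RPM (-3.48, SE 0.386), and Foxa2, of floor plate and notochord, had 0.156, 0.153 and 0.186 RPM against 6.13, 2.86 and 2.87 RPM (-3.84, SE 0.284). For all 3 the dorsal library of replicate 1 was the highest. Nkx2-2, which overlaps the antisense gene Nkx2-2as, differed by -3.83. Of 18 genes of the neural crest and the sympathoadrenal lineage 14 were lower and none higher (median -2.32; sums 219 to 262 against 618 to 710 RPM). Sox10, of migrating crest and glia, had 9.83, 8.78 and 6.81 RPM against 60.2, 56.6 and 59 RPM (-2.79, SE 0.118). Dbh, which encodes the enzyme that makes noradrenaline, had 20.9, 15.7 and 13.5 RPM against 114, 103 and 79.4 RPM (-2.56, SE 0.171). These crest genes kept a measurable ventral level in every library. Foxd3 (-2.99) and Insm1 (-2.76) were lower as well.

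Markers of the coelomic epithelium and the adrenogonadal primordium were higher in E10 AoV for 13 of 16 genes tested, and none was lower (median 2.74; sums 1230 to 1300 against 249 to 281 RPM, and 994 to 1080 RPM in E10 UGR). Wt1, the Wilms tumour factor of coelomic epithelium and gonad, had 231, 234 and 214 RPM against 37.7, 53.8 and 44.2 RPM (2.33, SE 0.111). Nr5a1, which encodes steroidogenic factor 1, had 66.3, 69 and 62.2 RPM against 3.59, 4.84 and 3.69 RPM (4.0, SE 0.11), and Tcf21, a bHLH factor of visceral mesoderm, had 51.6, 64.1 and 51.4 RPM against 2.38, 2.99 and 2.56 RPM (4.34, SE 0.112). In each case the groups were far apart. In E10 UGR these 3 genes were at 370 ± 17.7, 76.9 ± 5.85 and 34.1 ± 0.416 RPM, above, near and below the ventral aorta. Of 14 germ cell genes tested 11 were higher and none lower (median 3.21; sums 68.3 to 75.6 against 44.5 to 46 RPM, and 34.4 to 36.1 RPM in E10 UGR). Pou5f1 was measured at 13.8, 14.8 and 15.6 RPM ventrally, at 0.0769, 0.326 and 0.45 RPM dorsally and at 2.63 ± 0.199 RPM in E10 UGR. Nanog (3.61, 3.84 and 3.91 against 0.0769, 0.176 and 0.189 RPM; 4.01) and Dppa3 (4.05, 4.76 and 5.15 against 0.082, 0.125 and 0.17 RPM; 4.41), also of germ cells, likewise had their highest level ventrally. Esrrb differed by 4.26. Dazl and Mael, germ cell genes that act later, were below 0.5 RPM in all 6 libraries.

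Of 13 splanchnic mesenchyme genes 12 were in the table, and 9 of these were higher in E10 AoV and none lower (median 1.56; sums 325 to 330 against 125 to 159 RPM, and 170 to 189 RPM in E10 UGR). Hlx, a homeobox gene of gut mesenchyme, had 96.8, 99.2 and 93.7 RPM against 5.94, 6.42 and 5.35 RPM (4.01, SE 0.0703). Isl1 (1.36), Hand1 (2.27), Mab21l2 (3.71, overlapping Lrba on the other strand) and Barx1 (3.86) were higher too. Barx1, of stomach mesenchyme, varied within the ventral group, at 14.2, 6.7 and 4.33 RPM, and did not reach the dorsal range of 0.166 to 1.28 RPM. The 3 genes not called were below 0 and under 2-fold, Foxf1a with 11.2 ± 0.551 against 21.7 ± 6.56 RPM (-0.90, adjusted p = 0.00385), Tbx3 with -0.82 and Tbx2 with -0.47. Of 8 gut endoderm and liver genes tested 5 were higher, at low levels (median 1.28; sums 43.9 to 47.4 against 26.4 to 30.7 RPM, and 188 to 193 RPM in E10 UGR). Epcam and Cdh1, of all epithelia, had 11 ± 0.723 against 3.58 ± 1.03 RPM (1.62) and 11 ± 0.751 against 4.26 ± 1.44 RPM (1.39). The intestinal factor gene Cdx2 had 0.752, 1.15 and 0.582 RPM against 0.205, 0.125 and 0.0947 RPM (1.92), and Afp, of liver and yolk sac, had 0.467, 0.844 and 0.955 RPM against 0.384, 0.176 and 0.118 RPM (1.43). The liver genes Alb and Ttr were below 0.5 RPM in all 6 libraries. Of 12 nephric genes tested 7 were higher and none lower (median 1.16), but the sums overlapped (70.3 to 90.2 against 68.5 to 89.4 RPM; exact permutation p = 0.6, two-sided) and were several-fold higher in E10 UGR (438 to 448 RPM). Pax2 (1.45), Pax8 (1.40) and Hnf4a (1.76) were among the 7. Hnf4a was close to the floor, at 0.464 ± 0.0485 against 0.0841 ± 0.104 RPM, and lost its call with a pseudocount of 0.5 or 1 RPM.

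Of 18 endothelial genes 1 (5.56%, beside 4.32% of all genes tested) was lower in E10 AoV and none higher (median -0.01), and the summed level was 1060 to 1140 RPM in both groups (exact permutation p = 0.9, two-sided). Cdh5, the VE-cadherin gene, had 217, 225 and 210 RPM against 222, 215 and 230 RPM, and Pecam1 had 98.3, 102 and 98.7 RPM against 103, 94.9 and 106 RPM. The groups overlapped for both genes. Kdr, the VEGF receptor gene, was at 133 ± 10.6 against 113 ± 4.04 RPM (0.24). The exception was Fli1, an ETS factor of endothelium and blood that is also transcribed in neural crest and mesenchyme, with 27.3, 27.7 and 24.9 RPM against 56, 57.4 and 48 RPM (-1.01, SE 0.076), close to the 2-fold threshold and under it, between -0.96 and -0.98, without the dorsal library of replicate 1 or 2 or the ventral library of replicate 3. Of 13 arterial and venous genes 2 were higher, Nr2f2, the COUP-TFII gene of veins and mesenchyme (409, 396 and 374 against 134, 139 and 143 RPM; 1.5, SE 0.0462), and the netrin receptor gene Unc5b (240, 249 and 248 against 113, 117 and 118 RPM; 1.08, SE 0.0376). The semaphorin co-receptor gene Nrp2 was lower (-1.11), while the arterial genes Efnb2 (231 ± 6.66 against 220 ± 6.51 RPM) and Gja5 (111 ± 6.81 against 147 ± 7.77 RPM) were not called.

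Of 22 genes of hematopoietic stem and progenitor cells 3 were higher, 1 lower and 18 not called (median 0.07; sums 420 to 458 against 454 to 464 RPM, exact permutation p = 0.2, two-sided). Kit, the stem cell factor receptor gene, had 60.1, 62.2 and 55.3 RPM against 26.8, 26.9 and 27 RPM (1.13, SE 0.0525), Gfi1, a repressor that acts in the endothelial-to-hematopoietic transition, had 3.92, 3.71 and 5.22 RPM against 2.02, 1.33 and 2.49 RPM (1.12, SE 0.222), and Spn, a leukocyte sialophorin gene, had 3.27 ± 0.396 against 1.45 ± 0.258 RPM (1.12, SE 0.152). All 3 were just past 2-fold with no overlap, and Gfi1 fell to 0.89 without the dorsal library of replicate 2 and to 0.98 without the ventral library of replicate 3, under the threshold. Tested against 2-fold itself with limma's treat, none of the 3 was called. Germ cells also express Kit, and their markers moved in the same direction (11 of 14 genes, above). Their part in the difference was not tested. Runx1, required for the emergence of HSCs, had 22.1, 22.9 and 25.7 RPM against 16.3, 13.9 and 17 RPM, an increase of 0.58 (SE 0.0895, adjusted p = 0.00106) that was under 2-fold although the ranges were separate. Myb, needed for definitive blood (9.14 ± 0.752 against 6.56 ± 0.0473 RPM; 0.47), and Gata2 (20.9 ± 0.777 against 21.5 ± 1.88 RPM) were not called. Mecom, an HSC regulator that mesoderm and mesonephros also express, was lower, with 57.5, 53 and 54.1 RPM against 127, 133 and 120 RPM (-1.21, SE 0.0518). No gene was called among 13 erythroid genes (median -0.40; sums 5860 to 11300 against 9420 to 12500 RPM), 14 macrophage genes tested (median -0.46; 72.1 to 87.9 against 93.9 to 109 RPM) or 7 megakaryocyte genes tested (median 0.16; 43.3 to 53.6 against 30.7 to 33.4 RPM). All 14 macrophage genes were below 0, between -0.766 and -0.165. With no limit on the fold, 7 of them were lower at a limma adjusted p below 0.05, beside 2889 of all 17752 genes tested. All erythroid genes were below 0 too (-0.492 to -0.227), none of them at that adjusted p. The embryonic globin gene Hbb-y had 2390, 4760 and 3810 RPM against 3880, 5080 and 5180 RPM, lowest in the ventral library of replicate 1, and the groups overlapped. Hba-x was at 1910 ± 548 against 2470 ± 310 RPM, and Klf1, the erythroid factor gene, at 9.72 ± 2.88 against 13 ± 1.91 RPM. Of the macrophage genes Csf1r, the receptor gene of colony stimulating factor 1, was at 10.4 ± 0.997 against 15.6 ± 0.95 RPM (-0.57; 15.7% of its 50-base stretches shared), Mrc1 at 17.5 ± 2.91 against 20.9 ± 2.37 RPM and the complement gene C1qa at 3.51 ± 0.995 against 3.87 ± 0.48 RPM. The platelet factor gene Pf4 was at 4.61 ± 0.849 against 4.18 ± 0.06 RPM.

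Of 17 smooth muscle and pericyte genes 2 were higher in E10 AoV, Rgs5 and Des, and none lower (median 0.07; sums 1630 to 1660 against 1210 to 1340 RPM). Rgs5, a regulator of G protein signalling found in pericytes, had 257, 271 and 256 RPM against 31.3, 35.5 and 30.6 RPM (3.01, SE 0.0603). Acta2, the smooth muscle actin gene, had 317, 333 and 361 RPM against 372, 287 and 373 RPM, and the groups overlapped. The pericyte receptor gene Pdgfrb (122 ± 6.93 against 154 ± 1.73 RPM; -0.34) and Mcam (89.3 ± 1.16 against 110 ± 12.5 RPM; -0.30) were not called, although their ranges were separate.

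**Figure D4:**
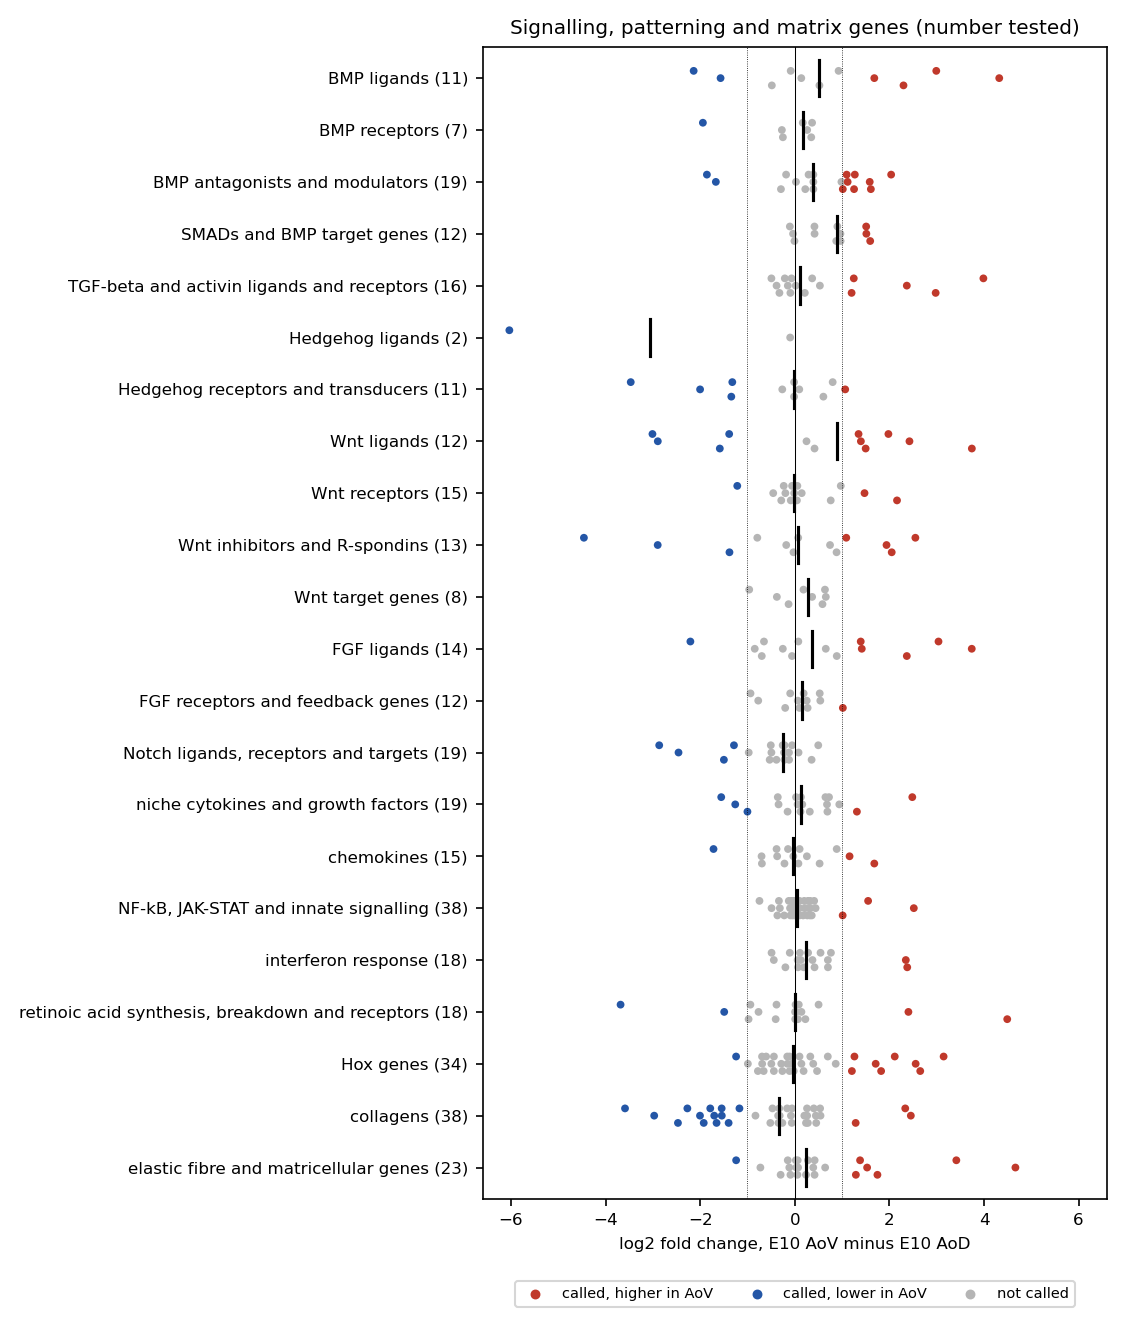
Log2 fold changes of E10 AoV over E10 AoD for genes of signalling pathways, patterning and matrix, drawn as in the plot of marker genes: 1 point a gene, red called higher, blue called lower, grey not called, black ticks for medians and dotted lines at 2-fold. BMP, Wnt and FGF ligands spread to both sides, Hedgehog genes and collagens reach to the left, and the interferon, NF-kB and Wnt target rows cluster near 0 apart from a few red points.

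Among the ligands of the BMP pathway, which signals through SMAD proteins, 11 of 16 genes were tested, 4 were higher and 2 lower (median 0.52). Bmp4, the ligand of the subaortic mesenchyme, had 88.4, 87.9 and 96.6 RPM against 28.5, 25.5 and 31.1 RPM (1.68, SE 0.0747; antisense gene Gm15217), and Gdf6 had 19.4, 21.8 and 21.9 RPM against 0.897, 1 and 0.971 RPM (4.32, SE 0.0918). Gdf10 (4.9, 5.83 and 3.49 against 0.794, 1.1 and 0.734 RPM) was higher by 2.30. Bmp2 went the other way, with 10.7, 8.59 and 8.78 RPM against 28.6, 24.3 and 31 RPM (-1.57, SE 0.111), and so did Bmp3 (0.674 ± 0.188 against 3.25 ± 0.359 RPM; -2.14). The ranges of all these genes were separate. Gdf2, the BMP9 gene, had 0.752, 1.07 and 0.978 RPM in E10 AoV and at most 3 reads in each dorsal library (0, 0.0251 and 0.071 RPM), so its fold change depends on the pseudocount. Bmp5 was at 89.2 ± 7.12 against 46.8 ± 1.17 RPM (0.93), under 2-fold. Of 7 receptors only Bmpr1b was called, and it was lower (5.93 ± 1.11 against 23 ± 3.58 RPM; -1.94).

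Of 19 BMP antagonists and modulators tested 8 were higher in E10 AoV and 2 lower (median 0.39; sums 1150 to 1190 against 1060 to 1110 RPM). Bmper, which encodes a secreted BMP-binding protein, had 90.1, 90.5 and 93.5 RPM against 41, 42 and 45.1 RPM (1.10, SE 0.0475; not called by limma's treat against 2-fold), and Kcp, related to it, had 41.7, 42.2 and 36.7 RPM against 10.6, 8.36 and 10.3 RPM (2.04, SE 0.0982). Bambi, a decoy receptor, had 77.6 ± 1.65 against 25.9 ± 2.14 RPM (1.58), and Chrdl2 had 1.3, 0.946 and 1.23 RPM against 0.231, 0.477 and 0.26 RPM (1.61). Nog, the noggin gene, had 10.2, 9.46 and 11.7 RPM against 5.12, 4.79 and 5.42 RPM, just past 2-fold (1.0), and was at 0.97 without the dorsal library of replicate 2 and at 0.93 without the ventral library of replicate 3. Chrd, the chordin gene, was at 4.73 ± 0.621 against 3.56 ± 0.165 RPM (0.39). The antagonists Sostdc1 (-1.86) and Nbl1 (-1.67) were lower. Of 12 SMADs and BMP target genes 3 were higher and none lower, and their median of 0.89 compares with 0.02 over all genes tested. Msx1 (1.59), Msx2 (1.51) and Smad9 (1.51) were called, and the inhibitory Smad6 (95.8 ± 4.31 against 48.9 ± 1.91 RPM; 0.97) and Id1 (191 ± 21.5 against 143 ± 17.5 RPM; 0.42) were under 2-fold.

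Of 16 genes of TGF-beta and activin ligands and receptors 5 were higher and none lower (median 0.12). Inhbb, the activin beta B subunit gene, had 10.2, 11.2 and 8.31 RPM against 0.794, 0.778 and 0.213 RPM (3.99, SE 0.37). Tgfb2 had 127 ± 1.53 against 53.8 ± 9.03 RPM (1.25), and the receptor gene Acvr1c had 1.81 ± 0.492 against 0.139 ± 0.0361 RPM (2.98). The nodal-related gene Gdf3 had 0.597, 1.02 and 0.699 RPM against 0.0512, 0.0753 and 0.071 RPM, with every dorsal library at 3 reads or fewer. Inhba, the activin beta A subunit gene, was at 0.782 ± 0.181 against 0.513 ± 0.145 RPM (0.53). The study had chosen 10 secreted proteins to test in culture from libraries that include these, and 8 of them were called higher here, which is not independent evidence of their direction. Ibsp (3.42), Nell1 (3.41) and Wnt2b (3.74) were among the 8, Igfbp3 (225 ± 14.2 against 122 ± 3.21 RPM; 0.89) was under 2-fold, and Ccl4 differed by 0.08.

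Among Hedgehog genes the ligand gene Shh was lower in E10 AoV, and of 11 receptors and transducers tested 4 were lower and 1 higher (median -0.02). Ptch1, the receptor and a direct target, had 94.8, 85.9 and 83.3 RPM against 338, 362 and 357 RPM (-2.0, SE 0.0552), Hhip, the Hedgehog-binding inhibitor, had 2.28, 1.92 and 1.61 RPM against 20, 22.8 and 24.1 RPM (-3.47, SE 0.129), and Gli1, the target and effector, had 46.4, 43.9 and 53.2 RPM against 133, 105 and 127 RPM (-1.34, SE 0.0983). Ventral levels of Ptch1 and Gli1 remained well above the floor. The co-receptor gene Gas1 was higher (118 ± 2.89 against 57 ± 12.2 RPM; 1.07, and 0.92 without the dorsal library of replicate 1), and Gli3, the repressor, was at 175 ± 13.6 against 116 ± 18.4 RPM (0.60). Of 2 ligand genes tested Shh was the one called. Of 6 FoxF and related forkhead genes tested Foxf2 and Foxd1 were lower and none was higher (median -0.77).

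Wnt genes were called in both directions. Of 12 ligand genes tested 6 were higher and 4 lower (median 0.88), and the sums overlapped (116 to 130 against 110 to 143 RPM; exact permutation p = 1, two-sided). Wnt2b had 22.5, 27.5 and 31 RPM against 1.74, 1.98 and 2.01 RPM (3.74, SE 0.122), and Wnt2 (2.42), Wnt9a (1.98), Wnt4 (1.5) and Wnt9b (1.40) were higher as well. Wnt16 had 2.02, 1.59 and 1.4 RPM against 12.8, 17.3 and 12.4 RPM (-3.01, SE 0.165), and Wnt7a (-2.90), Wnt7b (-1.58) and Wnt5a (27.4 ± 3.65 against 71.7 ± 8.35 RPM; -1.39; antisense gene Gm2670) were lower. Wnt4, Wnt9b and Rspo1 have their highest level in the urogenital ridges, with 116 ± 6.43, 54.7 ± 3.71 and 35.7 ± 0.924 RPM. Of 15 receptors 2 were higher, Ror1 (103 ± 2.65 against 23.1 ± 3.66 RPM; 2.16) and Fzd5 (1.47), and 1 lower, Fzd9 (-1.22). Of 13 secreted inhibitors and R-spondins tested 4 were higher and 3 lower. Rspo1, an enhancer of Wnt signalling, had 23.8, 22.2 and 21.1 RPM against 2.59, 4.39 and 4.57 RPM (2.55, SE 0.19), whereas Rspo2 had 0.934, 0.665 and 0.629 RPM against 5.97, 7.18 and 5.3 RPM (-2.90, SE 0.172). Both members of this pair were separated in opposite directions. The inhibitor genes Dkk1 (2.05), Sfrp1 (1.94) and Frzb (1.09) were higher, and Wif1 (-4.46) and Sfrp5 (-1.38) were lower. None of 8 Wnt target genes was called (median 0.28, between -0.963 and 0.656), Axin2 being at 14.2 ± 0.603 against 15.6 ± 1.42 RPM and Lef1 at 18.5 ± 1.31 against 24.1 ± 1.02 RPM. With no limit on the fold, 4 of the 8 were higher and 2 lower at a limma adjusted p below 0.05. Over all 17752 genes tested these counts were 3919 and 2889. Lef1 was among the lower genes and Axin2 was not.

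Of 14 FGF ligand genes tested 5 were higher and 1 lower (median 0.36; sums 87.2 to 91.9 against 22.4 to 28.2 RPM). Fgf10, a mesenchymal ligand (antisense gene Gm16263), had 55.5, 56.9 and 61.6 RPM against 3.36, 5.42 and 4.18 RPM (3.74, SE 0.147), and Fgf9, an epithelial one, had 7.52, 6.68 and 7.06 RPM against 0.717, 1.08 and 0.592 RPM (3.04, SE 0.188). Fgf20 (2.37) and Fgf5 (1.42) were at lower levels. Fgf4, of the myotome, had 0.538, 0.979 and 0.663 RPM dorsally and about 3 reads in each ventral library. Among 12 receptors and feedback genes the inhibitor gene Spry1 was called (53.6 ± 4.85 against 26.5 ± 2.85 RPM; 1.02), close to the threshold (0.94 without the dorsal and 0.95 without the ventral library of replicate 1), and Spry2 (36.2 ± 4.35 against 30.2 ± 0.346 RPM) and Fgfr3 (32 ± 2.78 against 26.6 ± 3.62 RPM) were not. Of 19 Notch ligand, receptor and target genes 4 were lower and none higher (median -0.26): Dll3 (5.45, 4.12 and 2.91 against 33.5, 29.7 and 27.2 RPM; -2.87), Hes5 (-2.46), Dll1 (-1.5) and Heyl (-1.29). Dll1, Dll3 and Hes5 are genes of the somite and of neural progenitors. Notch1 (66 ± 8.14 against 129 ± 9.5 RPM; -0.97) was just under the threshold, and Hes1 was at 25.2 ± 1.53 against 29.4 ± 3.56 RPM.

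Kitl, the stem cell factor gene that supports HSCs and germ cells (ENSMUSG00000019966), had 215, 222 and 227 RPM in E10 AoV against 37.3, 39.4 and 41.8 RPM in E10 AoD (2.48, SE 0.05, adjusted p = 2.35e-08), and 179 ± 6.24 RPM in E10 UGR. Its groups were separated by many times their spread, and its receptor Kit was higher on the same side. Of 19 niche cytokines and growth factors tested Igf1 was the other one that was higher (102, 109 and 81.9 against 33.8, 49.4 and 35.4 RPM; 1.31, SE 0.151), and Figf, the VEGF-D gene (-1.55), the erythropoietin gene Epo (-1.26) and Tslp (-1.0) were lower at levels under 3 RPM (median of the list 0.13). Epo overlaps Gnb2 on the same strand and had 0.259 ± 0.0512 against 0.759 ± 0.109 RPM. Figf, Epo and Tslp all lost their calls with a pseudocount of 1 RPM, and Epo and Tslp also with 0.5 RPM. Tslp further lost its call without any 1 of 4 libraries, dorsal replicates 2 and 3 and ventral replicates 1 and 3. Angpt2 (0.94), Hgf (0.72) and Csf1 (0.65) were under 2-fold, and Dlk1 was at 646 ± 26.7 against 612 ± 23.2 RPM. Of 15 chemokine genes tested Cxcl13 (5.86, 4.58 and 5.61 against 1.72, 1.35 and 1.73 RPM; 1.68) and Cxcl10 (1.16) were higher and Cxcl15 (-1.72) was lower (median -0.03). Cxcl12, which guides germ cells and HSCs, was at 1030 ± 20 against 1330 ± 15.3 RPM (-0.37).

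Of 38 genes of NF-kB, JAK-STAT and innate signalling tested 3 (7.89%, beside 5.8% of all genes tested) were higher and none lower (median 0.04). Irf5 had 20, 20.3 and 20.5 RPM against 4.05, 2.94 and 3.48 RPM (2.52, SE 0.11), with Tnpo3 on the other strand of its interval, Stat4 was higher by 1.55, and Jak1 (225 ± 9.02 against 111 ± 4.04 RPM; 1.0) was at the threshold and fell to 0.98 without the dorsal library of replicate 1 or the ventral library of replicate 2. Of 18 interferon response genes tested 2 were higher, Iigp1 (28.9, 35 and 32.7 against 5.86, 7.07 and 5.83 RPM; 2.35, SE 0.0987) and Gbp2 (2.07 ± 0.742 against 0.304 ± 0.0428 RPM; 2.38), and none lower (median 0.24). Isg15, an early gene of that response, was at 0.45 ± 0.0998 against 0.453 ± 0.262 RPM. Stat3 (32.7 ± 2.94 against 34.4 ± 2.86 RPM), Socs3 (89.6 ± 11.6 against 71.3 ± 8.14 RPM) and the interleukin 6 receptor gene Il6ra (1.15 ± 0.0929 against 1.47 ± 0.293 RPM) were not called. No gene was called among 22 immediate early genes (median 0.24), 12 heat shock genes (median -0.02), lists that respond to handling of tissue, or 15 housekeeping genes (median -0.03). With no limit on the fold, 8 immediate early genes were higher and 4 lower at a limma adjusted p below 0.05 (list range -0.96 to 0.92). For heat shock genes the counts were 2 and 2, and for housekeeping genes 0 and 3. Over all 17752 genes tested they were 3919 and 2889. Fos was at 973 ± 125 against 955 ± 152 RPM, Egr1 at 870 ± 125 against 920 ± 121 RPM and Hspa1b, which shares reads with the near-identical Hspa1a, at 13.3 ± 2.3 against 10.4 ± 2.2 RPM. The housekeeping genes Tbp (34.5 ± 2.57 against 35.6 ± 1.94 RPM) and Actb (1500 ± 20.8 against 1710 ± 75.7 RPM; -0.19) differed little.

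Retinoic acid is made from vitamin A, in its last step by retinaldehyde dehydrogenases. Of 18 genes of its synthesis, breakdown and receptors tested 2 were higher and 2 lower (median 0.01). The higher ones were the dehydrogenase genes Aldh1a1 (4.49, values above) and Aldh1a2, and a further one, Aldh1a3, was lower. Aldh1a2, the main enzyme of the trunk, had 234, 220 and 228 RPM against 34.7, 51.4 and 44.3 RPM (2.40, SE 0.12), and in E10 UGR it was higher still, at 406 ± 17.3 RPM. Aldh1a3 had 1.74, 1.25 and 1.23 RPM against 19.7, 17.3 and 20.2 RPM (-3.68, SE 0.137). The receptor gene Rarg was lower (20.5 ± 0.907 against 58.1 ± 5.39 RPM; -1.49), and the degrading enzyme gene Cyp26b1 was at 26.6 ± 1.2 against 18.8 ± 0.833 RPM (0.50). Of 34 Hox genes tested 8 were higher and 1 lower (median -0.04), and the 8 included members of the posterior paralogue groups. Hoxd11 had 7.11, 4.53 and 3.19 RPM against 0.179, 0.527 and 0.805 RPM (3.15, SE 0.429), Hoxa11 (overlapping Hoxa11as) had 5, 3.27 and 3.29 RPM against 0.461, 0.474 and 0.791 RPM (2.56, SE 0.233), and Hoxd10 differed by 2.65. Hoxd9 had 60, 66.9 and 63.5 RPM against 15.7, 12.1 and 16.3 RPM (2.11), and Hoxa10 had 21.7, 20.9 and 19.9 RPM against 8.4, 3.59 and 8.24 RPM (1.71). The libraries of each group varied widely in Hoxd11 but did not overlap. Hoxc10, 53.8, 51.4 and 52.3 RPM against 31.2, 11.7 and 28.5 RPM (1.26), rested on the low dorsal library of replicate 2 and was 0.81 without it. Hoxb8 was lower (-1.24), though 37.4% of its 50-base stretches are shared and it overlaps Hoxb7.

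Of 20 Slit, netrin and semaphorin guidance genes tested 5 were higher and 4 lower (median -0.28). Ntn1, the netrin of floor plate and somite (overlapping RP23-25D18.6), had 25.9, 21.5 and 22.1 RPM against 228, 235 and 196 RPM (-3.24, SE 0.0878). Its repulsive receptor gene Unc5c was on the other side, at 206 ± 30.5 against 34.6 ± 8.5 RPM (2.59), with Unc5d (2.25) and the Slit receptor gene Robo2 (1.33), while the attractive receptor gene Dcc was lower (1.14 ± 0.3 against 2.76 ± 1.28 RPM; -1.14) and lost its call without the dorsal library of replicate 2 (-0.80) or the ventral library of replicate 1 (-1.09) or 3. Sema3c was higher, with 86.6, 91.2 and 98.3 RPM against 37.6, 44.3 and 36.1 RPM (1.23). Slit1 (-2.38) and Sema3d (-1.28) were lower, and Slit2 (116 ± 4.04 against 74.5 ± 11.5 RPM; 0.65) and Sema3a (25.7 ± 1.16 against 33.9 ± 3.66 RPM; -0.39) were under 2-fold. Of 38 collagen genes tested 13 were lower and 3 higher (median -0.32). Col2a1, of cartilage and notochord sheath, had 84, 73.8 and 77 RPM against 981, 995 and 856 RPM (-3.59, SE 0.0695), and Col9a1, Col9a2 and Col11a2, of the same fibrils, differed by -1.40, -2.27 and -2.97, and Col19a1 by -2.47. The 3 higher ones were the basement membrane genes Col4a6 (2.33) and Col4a5 (1.29) and the vessel wall gene Col8a1 (2.45). Of 23 elastic fibre and matricellular genes 6 were higher and 1 lower (median 0.24). Besides Tnc these included Postn, the periostin gene (233, 255 and 268 against 73.8, 69.9 and 81.4 RPM; 1.75, SE 0.069), Ibsp (8.04, 6.88 and 7.5 against 0.692, 0.652 and 0.497 RPM) and Matn2 (1.53), with Matn4 lower (-1.24). Eln, the elastin gene, was at 12.4 ± 1.82 against 9.53 ± 2.19 RPM.

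Of 6 renin-angiotensin genes tested 2 were higher and 2 lower (median -0.20). Agtr2, an angiotensin receptor gene, had 18.3, 13.2 and 11.2 RPM against 90.3, 94.2 and 65.9 RPM (-2.56, SE 0.186), and Agtr1a (-1.19, and -0.99 without the ventral library of replicate 3) was lower. The aminopeptidase gene Enpep was higher by 1.91. Of 19 cell cycle genes tested 2 were lower and none higher (median -0.11): the inhibitor gene Cdkn1a (5.56 ± 0.664 against 13 ± 2.42 RPM; -1.20) and Ccnd2 (75.3 ± 2.25 against 152 ± 12.5 RPM; -1.01, and -0.94 or -0.98 without the dorsal library of replicate 2 or the ventral library of replicate 3). The proliferation marker Mki67 was at 573 ± 85 against 525 ± 127 RPM, and Cdkn1c at 646 ± 40.7 against 975 ± 60.6 RPM (-0.59).

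The signalling, guidance and matrix genes moved in the same libraries as the markers of notochord, sclerotome, myotome, neural tube and neural crest (4 of 6, 9 of 15, 11 of 14, 15 of 16 and 14 of 18 tested genes lower in E10 AoV) and of coelomic epithelium, germ cells and splanchnic mesenchyme (13 of 16, 11 of 14 and 9 of 12 higher). The part of each tissue's share of the pieces in those differences was not tested. In E10 UGR, which entered neither side of the comparison, 63.9% of the ventral genes (658) and 71.8% of the dorsal genes (551) had a mean log2 level nearer to E10 AoV than to E10 AoD, against 56.2% of all genes tested.

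The polarity at E10.5 was compared with that at E9.5, which was measured in 6 other libraries, by testing the difference of the log2 fold changes in a fit of all 12. The urogenital ridges were cut away as a piece of their own at E10.5 but not at E9.5. Stage and that difference in dissection cannot be told apart in these values. Only the 17752 genes that passed the filter in the E10.5 libraries were tested, so genes expressed at E9.5 alone were left out. At E9.5 1823 of these (10.3%) were called, 1263 (7.11%) higher and 560 (3.15%) lower in AoV. Of the 1029 genes higher in E10 AoV 488 (47.4%) were also called higher at E9.5, 521 (50.6%) were not called and 20 (1.94%) were called lower. Of the 767 dorsal genes 327 (42.6%) were called in the same direction, 376 (49%) not called and 64 (8.34%) called in the other. The difference between stages itself was called for 1709 of the genes tested (9.63%), 679 (3.82%) more ventral at E10.5 and 1030 (5.8%) more dorsal. Among the 1029 ventral genes 432 (42%) were more ventral at E10.5 and 55 (5.34%) less so, and among the 767 dorsal genes 359 (46.8%) were more dorsal at E10.5 and 55 (7.17%) less so. These genes were chosen by their difference at E10.5, in libraries that the test between stages used again. Larger differences at E10.5 were thus favoured among them, and these shares do not measure a gain with stage.

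**Figure D5:**
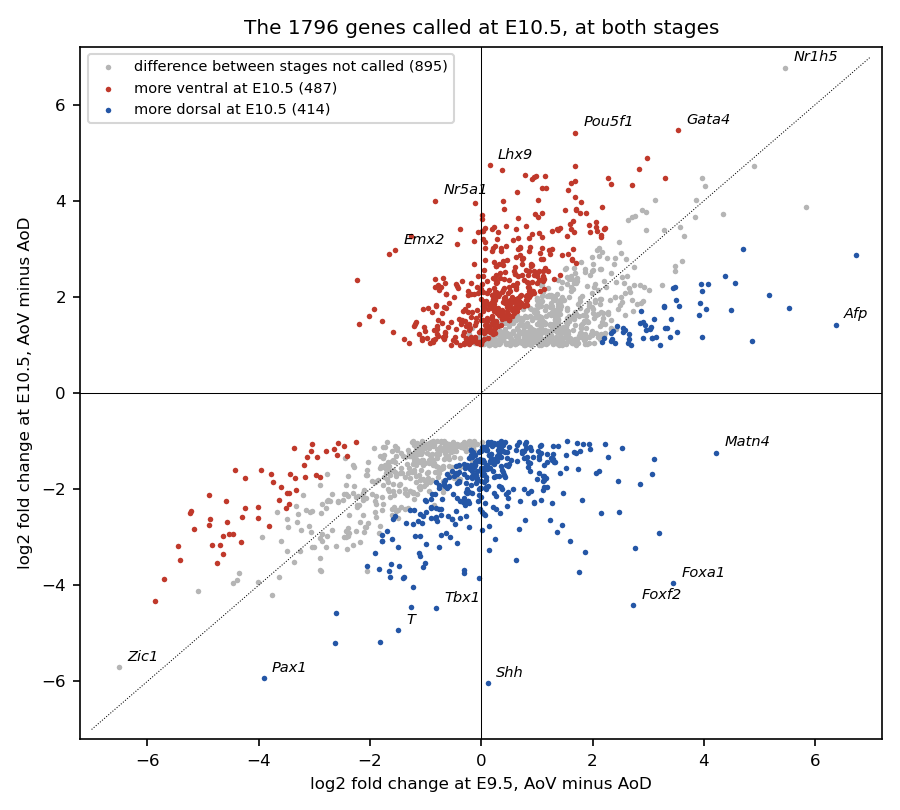
The 1796 genes called at E10.5, with the log2 fold change of AoV over AoD at E9.5 on the horizontal and at E10.5 on the vertical axis. Red genes were called more ventral and blue genes more dorsal at E10.5 than at E9.5, grey genes were not called for the difference, and the dotted diagonal marks equal values. Nr1h5 and Zic1 lie near the diagonal, Shh and Lhx9 near the vertical axis, and Foxa1 and Foxf2 in the lower right, where the directions of both stages are opposite.

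Of 16 tested genes of the coelomic epithelium and adrenogonadal primordium 9 were more ventral at E10.5 than at E9.5 and 1, the keratin gene Krt19 (-1.19), less so. At E9.5 7 of the 16 were already called ventral, among them Gata4 (3.53), Tcf21 (2.33) and Upk3b (2.28), and others were not. Lhx9 had 5.44 RPM in E9 AoV and 4.96 RPM in E9 AoD on average (0.15), so the difference between stages was 4.59 (adjusted p = 4.17e-07), and Nr5a1 had 0.581 and 1.23 RPM (-0.83; difference 4.83, adjusted p = 7.78e-06). Wt1 was level at E9.5 (39.3 and 39.5 RPM; difference 2.23), and Aldh1a2 was lower in E9 AoV (94.7 and 152 RPM; difference 3.08). The ventral mean of each of these genes was higher at E10.5 than at E9.5. Of 14 germ cell genes tested 11 were more ventral at E10.5, and 12 of 34 Hox genes were, with none less so. Other lists went the opposite way. Among splanchnic mesenchyme genes 6 of 12 were more dorsal at E10.5 than at E9.5, and none was more ventral. The same held for 8 of 17 smooth muscle and pericyte genes and 6 of 22 hematopoietic stem and progenitor genes, again with none more ventral. Shh had 42.1 and 38.6 RPM at E9.5 (0.11), so that its dorsal excess was found at E10.5 alone (difference -6.15, adjusted p = 3.03e-09). Ptch1 (323 and 247 RPM at E9.5; difference -2.38) and Hhip (15.4 and 9.93 RPM; difference -4.09) also differed between stages. Foxf2 had 51.2 and 7.68 RPM at E9.5 and Foxa1 had 51.5 and 4.62 RPM, both called ventral there (2.73 and 3.44) and dorsal at E10.5 (differences -7.14 and -7.40). The ventral pieces of the 2 stages also differed in gut and liver genes. Afp and Cdx2 had 415 and 26.7 RPM in E9 AoV and 0.755 and 0.828 RPM in E10 AoV on average. Epcam and Cdh1 had 55.7 and 78.8 RPM in E9 AoV and 11 RPM each in E10 AoV. The part of gut tissue in the stage differences of Shh, Ptch1, Hhip, Foxf2 and Foxa1 was not tested. Pax2 (-1.19) and Grem1 (-1.38) were dorsal at E9.5 and ventral at E10.5. Pax2 had its highest level in E10 UGR (31.4 ± 3.8 RPM), a piece not separated at E9.5. Of the collagen genes 19 were more dorsal at E10.5 and 1 more ventral. By contrast, Nr1h5 (5.46 at E9.5), Gpr50 (4.91), Zic1 (-6.51) and Bmp4 (1.35) were polarised at both stages with differences that were not called (adjusted p of 0.25, 0.855, 0.275 and 0.314).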

How the data were processed

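RNA from pooled, subdissected AGM tissue was sequenced as single-end reads after TruSeq library preparation. The authors aligned the reads with TopHat and Bowtie 0.12.3 to NCBIM37 (mm9), counted them over Ensembl genes, divided reads with several matches between genes in proportion to their unique reads, and deposited RPM (reads per M reads) for each library and gene. Sharing reads in that way can carry signal between near-identical genes, and, since no strand setting is given in the sources used here, reads from a gene and its antisense partner cannot be told apart. The deposited table also holds log2 fold changes and adjusted p-values of the authors' DESeq comparisons, which were not used. Low RPM values gave whole reads for 66.3% to 67.9% of values, within 0.05 reads, so counts were not rebuilt and no count model was run.

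Of 28876 genes in the table, 17752 with 0.5 RPM or more in at least 1 of the 6 libraries were tested with limma 3.58.1 (R 4.3.3) on log2(RPM + 0.1) with an intensity trend, 3 libraries against 3, without a replicate block. Benjamini-Hochberg adjustment covered all genes tested, and a gene was called at an adjusted p below 0.05 and a log2 fold change of at least 1 in size. The difference between stages was a contrast of a limma fit over the 12 aorta libraries. Sums over marker lists were compared by exact two-sided permutation. The fit was tested on simulated data.

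Genes named are the 15 largest differences in each direction with a mean of at least 5 RPM in the higher group, the 5 most abundant called genes in each direction, key members of the lists whatever their values, and up to 4 called members of each list in each direction. Some genes that the rule names are not reported here. A symbol with several identifiers was read at the one with the highest mean RPM. List members named beyond this rule (Noto, Dazl, Mael, Alb, Ttr, Ccl4, Krt19, Tbx2 and Tbx3, and the gene families of the closing section) were chosen after their values were seen. The comparison, the members and the lists were chosen with earlier results of these data known. Promoter sequences are those of RefSeq on GRCm38.p6. Alternatives covered the pseudocount, the filter, scaling, the fold threshold, the trend, the libraries fitted together, the replicate block and leaving out each library.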

Additional observations from a re-analysis of the deposited data

Results flagged for a closer look

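The polarity of 125 of the 239 genes chosen by the naming rule differed between E10.5 and E9.5 by the test of the difference itself (limma, 12 libraries), with an adjusted p below 0.05 and a difference of at least 1 in size. The 31 given here are those among the 15 largest differences in each direction at E10.5 and those called on opposite sides at the 2 stages. Genes of the first kind were chosen by their difference at E10.5, so a larger difference at that stage was favoured among them. Genes of the second kind were chosen by opposite calls at both stages, in the libraries that the test used again. A large difference was thus built into their choice, and its p-values are not independent evidence. Values are the log2 fold change of AoV over AoD at E10.5 minus that at E9.5. Groups of 3 libraries are too small for a test of single outlying libraries, and none was made.

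Ventral genes with a larger difference at E10.5 were Gata4 (1.95, adjusted p = 0.017), Gata5 (1.92), Lhx9 (4.59), Upk3b (2.20), Lrrn4 (2.74) and Aldh1a1 (3.55) of the coelomic side, and the germ cell genes Pou5f1 (3.73), Dppa5a (3.04) and Utf1 (3.75). The same held for Tnc (1.82), Dpp10 (4.26), Ntsr1 (3.55) and Popdc2 (1.17), of which Popdc2 was at 0.66 with a pseudocount of 1 RPM and at 0.96 without the E9 AoD library of replicate 1.

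Dorsal genes with a larger difference at E10.5 were Shh (-6.15), Pax1 (-2.02), Pax9 (-2.58), T (-3.44), Tbx1 (-3.66), Wif1 (-3.20) and Acan (-2.19). Neurod4 was less dorsal at E10.5 than at E9.5 (1.55, adjusted p = 0.0302).

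Genes called on opposite sides at the 2 stages were Foxf2 (-7.14, adjusted p = 1.61e-09), Foxa1 (-7.40, adjusted p = 4.17e-09), Matn4 (-5.46), Sfrp5 (-4.48), Rspo2 (-4.26), Bmp2 (-3.10) and Cxcl15 (-2.82), ventral at E9.5 and dorsal at E10.5, and Pax2 (2.63), Pax8 (2.62) and Grem1 (2.50), which went the other way. Cxcl15 was below 1 RPM in all 4 aorta groups.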

How the results depend on the processing

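The count of 1796 called genes (1029 higher, 767 lower) moved by over 1.5 times in 3 settings. It was 6808 (3919 and 2889) with no fold threshold, 1020 (572 and 448) with a pseudocount of 1 RPM and 911 (523 and 388) when limma's treat tested against 2-fold itself. The difference between stages gave 1062 genes (422 and 640) with a pseudocount of 1 RPM, against 1709. By their construction a larger pseudocount and treat remove genes with few reads or a change close to 2-fold: 29 and 56 of 186 called named genes were lost, and the counts of the gut and liver list fell from 5 to 2 and 0 of the nephric list from 7 to 4 and 0, of the BMP antagonists from 8 to 5 and 2, of the hematopoietic list from 3 to 1 and 0, and of the lower niche cytokines from 3 to 0 and 0. The endothelial gene called lower was lost in both, while the coelomic list went from 13 to 12 in each and the lower myotome genes stayed at 11. Quantile normalization gave 1749 (915 and 834), median scaling 1773, no filter 2022, and leaving out 1 library 1746 to 1822. Uncalled genes near 0 changed sign: Isg15 with quantile normalization (-0.02), and, with 1 library left out, Isg15 (-0.37 to 0.39), Tbp (-0.11 to 0.00), Gata2 (-0.11 to 0.01), Pecam1 (-0.07 to 0.01), Fos (-0.10 to 0.14), Pf4 (-0.01 to 0.25), Acta2 (-0.15 to 0.04), C1qa (-0.37 to 0.01) and Egr1 (-0.20 to 0.04).

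Replicate numbers are shared by the groups. Deviations from the group means of AoV and AoD libraries of the same number correlated at 0.0563, 0.233 and 0.197, so the numbers were not taken to pair the samples, although each AoV library correlated best with its own number. With the replicate block 1800 genes were called (1030 and 770), and 1756 (702 and 1054) for the difference between stages, and none of the 186 called named genes was lost. Low counts limit precision: 3 reads are 0.0699 to 0.0777 RPM, and a gene below that in 1 group has a fold change set by the pseudocount.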

Other observations

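Families of regulatory genes that the report does not describe as such were counted in the same comparison, beside 5.8% of tested genes called higher in E10 AoV and 4.32% called lower. Overlaps with other genes and reads shared between family members were not checked for these genes. Of 6 Gata genes 3 were higher and none lower, among them Gata6 with 193, 205 and 209 RPM against 14.5, 15.7 and 17 RPM (log2 fold change 3.68). Of 38 nuclear receptor genes tested 11 were higher and 1 lower (median 0.26). The estrogen receptor gene Esr2 had 2.91, 2.79 and 2.75 RPM against 0.384, 0.351 and 0.26 RPM (2.77), with no overlap, and was at 0.562 ± 0.0758 RPM in E10 UGR. Of 7 Meis and Pbx genes, which encode partners of Hox proteins, Pbx3 was called, with 121 ± 1.53 against 58.5 ± 2.63 RPM (1.05), just past 2-fold, and none was lower (median 0.35). Of 16 KLF genes 2 were higher, Klf5 (1.78) and Klf8 (1.06), and none lower.

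Other families were called mostly on the dorsal side. Of 7 Pax genes tested 5 were lower and 2 higher, of 18 Sox genes 7 were lower and 1 higher, of 30 Fox genes 7 were lower and 3 higher, and of 4 Irx genes 3 were lower, Irx1 (-2.07), Irx3 (-1.31) and Irx5 (-1.84). The forkhead gene Foxo6 went the other way, with 21.9, 20.8 and 20.7 RPM against 2.13, 3.61 and 2.06 RPM (3.02). The T-box gene Tbx4 had 2.18, 2.43 and 2.42 RPM against 0.231, 0.301 and 0.26 RPM (2.75). Of 25 genes of tropomyosins, troponins and sarcomeric myosins tested 14 were lower and 1 higher, the slow troponin gene Tnni1, with 39.9, 44.9 and 41.9 RPM against 10.6, 16.3 and 11.5 RPM (1.74).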
